A study of Mus musculus with 8 samples.

Results

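Telocyte-like fibroblasts of the colon assembloid stroma were analysed as the stromal cells that held transcripts of at least 2 of the 4 genes Bmp2, Bmp5, Bmp7 and Adamdec1. The gate took 1921 of the 18068 cells that passed filters in the 2 stromal libraries, or 10.6%, out of 77108 passing cells in all 8 libraries of the series. Members were selected on unique molecular identifiers (UMIs, each standing for 1 captured transcript): Col1a2 at 3 or more, Epcam at 0, at least 1 UMI of 2 or more of the gate genes, and not both Mki67 and Top2a at 2 or more. A passing cell had at least 500 genes detected and at most 10% of its UMIs from mitochondrial genes. With the same limits on genes and mitochondrial UMIs, the study analysed fewer stromal cells than passed here, and its own clusters were not used. Shares of members thus have another denominator than the study's. Since Col1a2, Epcam, Mki67, Top2a and the 4 gate genes chose the cells, their levels are given below as a description and were not tested.

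The assembloids were cultures of wild-type colon organoids combined with cultured primary colonic stromal cells in Matrigel, taken from C57BL/6 male mice. They matured in a medium that lacked Wnt surrogate, CHIR-99021, R-spondin 1 and noggin, and that held EGF and the TGF-beta receptor inhibitor A83-01. All stromal cells described here shared this genotype and medium, and the study describes them as EpCAM-negative cells run with 10x Genomics kits. The other 6 libraries were assembloid, organoid and tissue epithelium, 2 of each. The stroma had been cultured before assembly and was built without immune cells, which limits it as a model of the colonic lamina propria.

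Telocytes are thin subepithelial fibroblasts of the gut that lie close to the epithelium, are rich in Foxl1 and Pdgfra, and supply bone morphogenetic proteins (BMPs) and non-canonical Wnt ligands to epithelium leaving the crypt. Trophocytes, marked by Cd34 and Cd81, lie beneath the crypt and supply the BMP antagonist gremlin 1 and R-spondins that keep stem cells dividing. BMPs signal through paired receptor kinases to SMAD proteins, which switch on Id genes, while secreted antagonists trap the ligands outside the cell.

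The first stromal library held 779 members, 14.7% of its 5304 non-cycling fibroblasts (exact Clopper-Pearson 95% interval 13.7% to 15.7%, counting error only). The second library held 1142 members, 16.1% of 7074 (interval 15.3% to 17.0%). The mean share was 15.4% ± 1.03 (SD, n = 2), and it depended on the gate: it was 7.03% with all cells thinned to 4000 UMIs before gating and 7.09% when 3 of the 4 genes were required. The remaining non-cycling fibroblasts were divided by the R-spondin gene Rspo3 into 2720 and 4267 Rspo3 fibroblasts with at least 1 UMI, and 1805 and 1665 other fibroblasts with none. Members were the deepest of these 3 classes, with medians of 14490 and 14596 UMIs per member, 13601.5 and 11994 UMIs per Rspo3 fibroblast and 12292 and 11311 UMIs per other fibroblast. The stromal libraries held 164072756 and 141478777 UMIs, and they shared 30 cell barcodes with each other, 0.315% of the barcodes in the first. Levels below are UMIs of a gene per 1000000 UMIs (CPM), summed over the cells of a class in 1 library and given for the first library, then the second, and a sum cannot separate more positive cells from more transcripts per cell. By the study's methods the libraries are biological replicates. With the library as a block, p-values rest on how much class differences varied between these 2 libraries, over all classes of a fit. They also rest on spread that edgeR shares across genes, since 2 libraries give little information on the spread of a single gene. The fit of members, Rspo3 and other fibroblasts also held cycling fibroblasts, and each division of members held the remaining members. Differences are log2 fold changes ± their standard error from edgeR with the library as a block, and a gene is called higher or lower where its Benjamini-Hochberg adjusted p over all genes tested was under 0.05. Where class values are said not to overlap, or to lie above or below others, this describes 2 values per class. The share of all tested genes that do so is not given.

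The gate was carried mainly by Adamdec1 and Bmp2. Adamdec1, a secreted metalloprotease of lamina propria fibroblasts (gene at chr14:68563380-68582095, GRCm38), had a UMI in 88.2% and 94.0% of members, and Bmp2 (chr2:133552159-133562885) in 79.5% and 61.4%. Bmp5 (chr9:75775364-75900310) was detected in 46.6% and 48.8% of members and Bmp7 (chr2:172868012-172940321) in 47.0% and 57.4%. Positive members held a median of 3 UMIs of Bmp2 in both libraries, and 3 and 6 UMIs of Adamdec1, but 1 UMI of Bmp5 or Bmp7. The most frequent combination of exactly 2 genes was Bmp2 with Adamdec1, in 223 and 224 members. All 4 genes were found together in 116 and 182 members, whereas Bmp5 with Bmp7 alone was found in 1 member of each library.

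Levels of several genes outside the gate followed the number of gate genes held. At the edge of the gate, cells with exactly 1 gate gene were left out and cells with 2 were taken in. Foxl1, a transcription factor of telocytes, was at 0.753 and 0.842 CPM in the 1358 and 1734 cells just outside, and at 2.93 and 3.36 CPM in the 418 and 620 cells just inside. It reached 10.1 and 16.1 CPM in cells with all 4 genes. Wnt5a, a non-canonical Wnt ligand, was at 54.3 and 34.6 CPM just outside, 71.6 and 50.3 CPM just inside, and 149 and 177 CPM in cells with 4 genes. The tetraspanin gene Cd81 went the other way, from 547 and 391 CPM just outside to 316 and 206 CPM just inside and 99.6 and 78.7 CPM in cells with 4 genes. Depth moved with the number of genes, from a median of 13583.5 and 12025.5 UMIs just outside to 17592.5 and 18865 UMIs in cells with 4 genes, and its part in these steps was not tested.

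**Figure D1:**
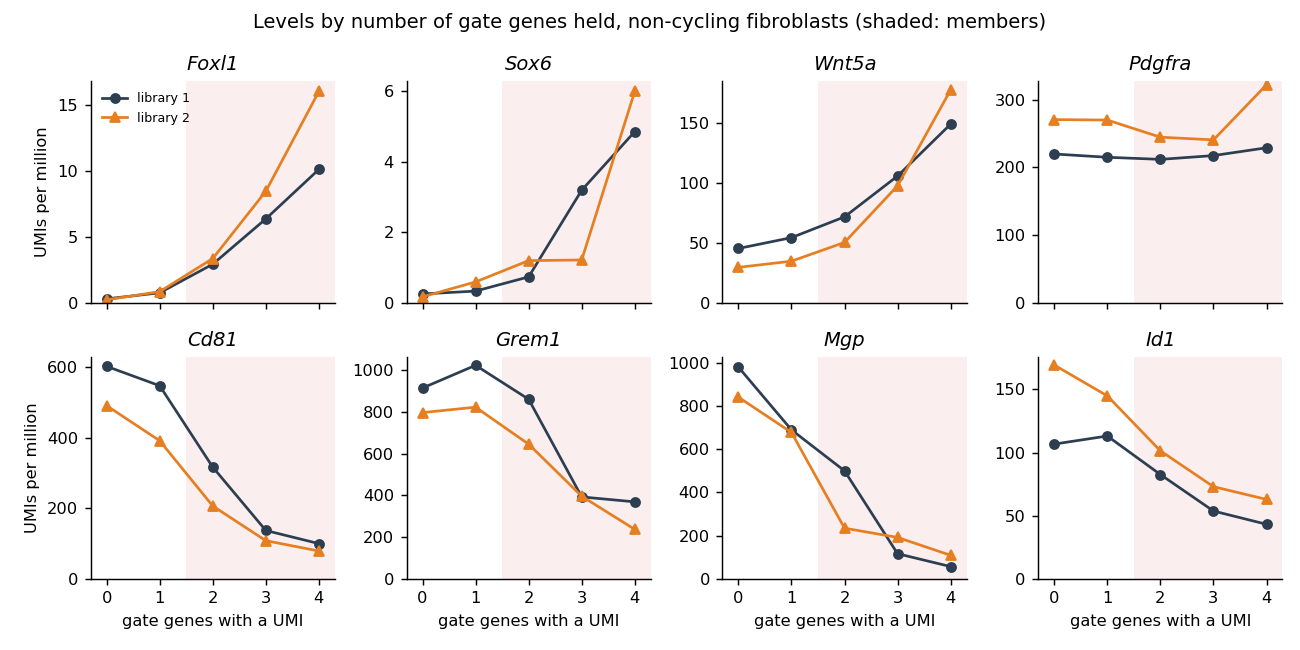
Levels in CPM (vertical axes, starting at 0) of 8 genes outside the gate in non-cycling fibroblasts holding 0 to 4 gate genes (horizontal axes), with 1 line per stromal library and the members shaded. Foxl1 and Wnt5a are highest and Cd81, Mgp and Id1 lowest in cells with 4 gate genes in both libraries, while Pdgfra stays between 212 and 322 CPM.

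The telocyte label was checked on genes that did not enter the gate, and it held in part. The check is not independent. In its assembloid stroma the study had placed Bmp2, Bmp5 and Bmp7 in the same fibroblast clusters as Foxl1, Wnt5a and Sox6. It described those clusters as lacking Cd34 and Cd81. Foxl1, Sox6, Wnt5a and Cd81 went with the label against both classes. Cd34 and Grem1 were lower against Rspo3 fibroblasts only. That class was drawn on Rspo3, which the study reports in its trophocyte-like cluster, so their fall against it is no check of the label. Pdgfra and F3 did not go with it. Foxl1 was at 5.24 and 7.44 CPM in members, 0.239 and 0.330 CPM in Rspo3 fibroblasts and 0.801 and 0.644 CPM in other fibroblasts, so both member values lay above all 4 others. The log2 fold change was 4.43 ± 0.33 (edgeR adjusted p = 7.9e-05) against Rspo3 fibroblasts and 3.04 ± 0.33 (edgeR adjusted p = 8.6e-04) against other fibroblasts. Sox6, a transcription factor that also marks telocytes, was low throughout, at 2.20 and 2.14 CPM in members against 0.215 and 0.260 CPM in Rspo3 and 0.379 and 0.396 CPM in other fibroblasts, with log2 fold changes of 3.13 ± 0.40 (edgeR adjusted p = 0.0011) and 2.41 ± 0.43 (edgeR adjusted p = 0.0078). Wnt5a was at 95.5 and 89.9 CPM against 48.2 and 31.1 CPM in Rspo3 and 48.1 and 30.9 CPM in other fibroblasts, with log2 fold changes of 1.22 ± 0.17 (edgeR adjusted p = 0.0018) and 1.21 ± 0.18 (edgeR adjusted p = 0.0036). These telocyte genes were thus higher in members in both libraries, though Foxl1 and Sox6 were scarce. Cd81 was lower in members, at 223 and 151 CPM against 602 and 482 CPM in Rspo3 and 551 and 398 CPM in other fibroblasts, with log2 fold changes of -1.59 ± 0.08 (edgeR adjusted p = 2.4e-05) and -1.39 ± 0.08 (edgeR adjusted p = 8.7e-05). In each of these 4 genes the member values did not overlap those of either class, a description of 2 values per class.

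F3 went against the label, and Pdgfra did not separate members from either class. Pdgfra, the PDGF receptor used to name telocytes, was at 216 and 258 CPM in members, 225 and 279 CPM in Rspo3 fibroblasts and 206 and 244 CPM in other fibroblasts, and neither difference passed the test (-0.12 ± 0.06 and 0.04 ± 0.06). Its values overlapped between all 3 classes. F3, the tissue factor gene, was lower in members, at 21.6 and 22.3 CPM against 30.4 and 41.0 CPM in Rspo3 and 29.6 and 29.9 CPM in other fibroblasts, with log2 fold changes of -0.74 ± 0.12 and -0.49 ± 0.13. Cd34 was at 19.9 and 17.8 CPM in members, below 27.7 and 34.6 CPM in Rspo3 fibroblasts (-0.77 ± 0.13), but its difference from 20.2 and 23.4 CPM in other fibroblasts did not pass the test (-0.25 ± 0.14). Rspo3, which divides the comparison classes and was not tested, still had a UMI in 189 and 268 members, 24.3% and 23.5%. Grem1, which the label takes to be low, had a UMI in 87.2% and 79.9% of members. Its difference from other fibroblasts did not pass the test. The Sox6 call against other fibroblasts and the F3 call against them were lost when the compared cells were matched in depth.

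Foxl1 transcripts were found in few members. With cells thinned to 4000 UMIs, a Foxl1 UMI was seen in 2.31% and 2.28% of members, against 0.148% and 0.164% of Rspo3 fibroblasts. Without thinning the shares were 7.70% and 9.89% of members and 0.368% and 0.445% of Rspo3 fibroblasts. Neural cells of the same libraries, which lack a fibroblast program and had median depths of 7673 and 8909 UMIs, held no Foxl1 UMI in the 102 and 120 cells deep enough to thin, which allows a share of up to 2.94% and 2.50% (3 counts of the total, counting error only). For Sox6 the thinned share was 0.771% and 0.701% of members but 11.8% and 13.3% of neural cells, so its share in members lay below that in neural cells. For Cd81 the thinned share was 38.4% and 25.9% of members, against 83.3% and 79.8% of Rspo3 fibroblasts and all and 97.5% of the neural cells, which express it. Thinning left out 1 member per library, 12 and 10 Rspo3 fibroblasts, and 11 and 12 neural cells.

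**Figure D2:**
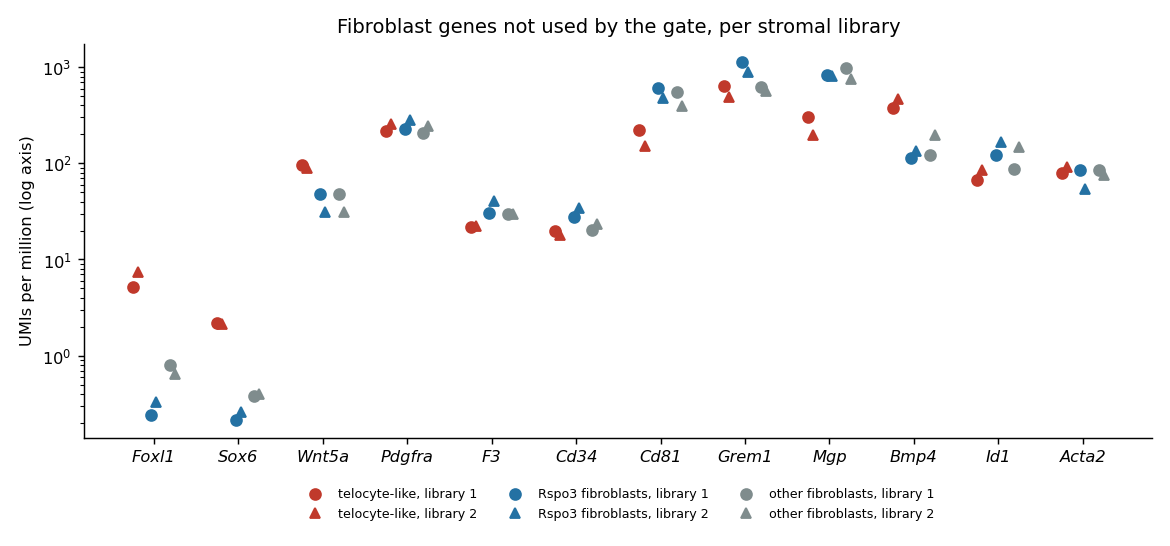
CPM (vertical log axis) of 12 fibroblast genes not used by the gate, in telocyte-like members, Rspo3 fibroblasts and other fibroblasts, with circles for the first and triangles for the second stromal library. Foxl1, Sox6, Wnt5a and Bmp4 lie higher and Cd81 and Mgp lower in members in both libraries, while Pdgfra overlaps between the classes.

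Members were first compared with Rspo3 fibroblasts. Of 14742 genes tested with edgeR, 1901 were higher and 1755 lower in members at an adjusted p under 0.05, a background of 12.9% and 11.9% of all genes. The largest rise among abundant genes was in the monocyte chemokine gene Ccl12, at 156 and 106 CPM against 5.55 and 7.06 CPM (4.34 ± 0.26, edgeR adjusted p = 3.3e-05). The related chemokine genes Ccl8 and Ccl11 (eotaxin) were also among the 10 largest rises of abundant genes, with Ccl11 at 3619 and 3191 CPM against 548 and 449.9 CPM (2.74 ± 0.14) and Ccl8 at 509 and 627 CPM against 79.5 and 80.5 CPM (2.78 ± 0.09). Aldh1a2, which makes retinoic acid, was at 575 and 376 CPM against 96.7 and 27.6 CPM (3.09 ± 0.31, edgeR adjusted p = 3.2e-04), and the T-box repressor gene Tbx2 at 75.6 and 80.6 CPM against 10.2 and 8.05 CPM (3.07 ± 0.17). The other large rises were in the carbonic anhydrase gene Car3, the potassium channel gene Kcnk2, the homeobox gene Rhox5, the carboxylesterase gene Ces1f and Igfbp5, which binds insulin-like growth factors, with log2 fold changes of 2.77 to 3.73. In each of these 10 genes both member values lay above both Rspo3 fibroblast values, which the rule that chose them, given below, required.

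The largest falls of abundant genes against Rspo3 fibroblasts included matrix and signalling genes. Ogn, a small leucine-rich proteoglycan gene, was at 16.5 and 25.2 CPM in members against 62.9 and 152 CPM (-2.35 ± 0.23, edgeR adjusted p = 2.8e-04). Ebf1, a transcription factor of mesenchymal and B lineage cells, was at 15.2 and 23.6 CPM against 63.4 and 128 CPM (-2.31 ± 0.15). The complement gene C3 was at 53.0 and 105 CPM against 164 and 437 CPM (-1.90 ± 0.19), and the stromelysin gene Mmp3 at 337 and 351 CPM against 1267 and 1054 CPM (-1.79 ± 0.09, edgeR adjusted p = 1.9e-05). Arxes1, chondrolectin (Chodl), the vasopressin receptor gene Avpr1a, pentraxin 3 (Ptx3), the retinoic acid binding gene Crabp1 and the enkephalin precursor gene Penk made up the remaining 6 of the 10, with log2 fold changes of -2.19 to -1.79. Without the library as a block, 496 genes were higher and 385 lower, and Foxl1, Sox6, Wnt5a, Ccl8, Ccl11, Ccl12 and Mmp3 remained among them while C3, Ogn and Aldh1a2 did not.

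Against other fibroblasts the same number of genes was tested, and 1182 were higher and 1150 lower, a background of 8.02% and 7.80%. Among abundant genes Ccl12 showed the largest rise, from 13.9 and 18.3 CPM in other fibroblasts (3.0 ± 0.25, edgeR adjusted p = 3.1e-04), and Ccl8 (2.14 ± 0.09), Aldh1a2 (2.26 ± 0.30), Kcnk2, Igfbp5, Ces1f and Rhox5 were among the 10 highest. Both comparisons use the same member sums, so their values are set side by side and not counted as separate observations. Ramp3, which directs calcitonin family receptors, was at 68.5 and 47.1 CPM in members against 13.5 and 7.58 CPM (2.46 ± 0.23), and Lcn2, the iron-scavenging lipocalin gene, at 265 and 79.5 CPM against 52.8 and 15.6 CPM (2.29 ± 0.19). The growth factor gene Ptn showed the largest fall among abundant genes, at 11.8 and 5.84 CPM against 80.9 and 51.6 CPM (-2.98 ± 0.13, edgeR adjusted p = 4.1e-05). Osteopontin (Spp1) was at 454 and 63.1 CPM against 1734 and 735 CPM (-2.70 ± 0.35), and Mgp, matrix Gla protein and an inhibitor of BMP ligands, at 304 and 196 CPM against 991 and 754 CPM (-1.85 ± 0.20). In each of these 3 genes both member values lay below both values of other fibroblasts, which the rule that chose them required. The other 7 of the 10 largest falls were in Penk, Ebf1, Ptx3, Prrx1, Ptger3, Mfap5 and Arxes1. With cells matched in depth 738 genes were higher, and without the block 181 were higher and 162 lower, with Foxl1, Ccl8, Ccl11, Ccl12, Ptn and Mgp still among them but not Wnt5a, Sox6, Cd81 or Bmp4.

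**Figure D3:**
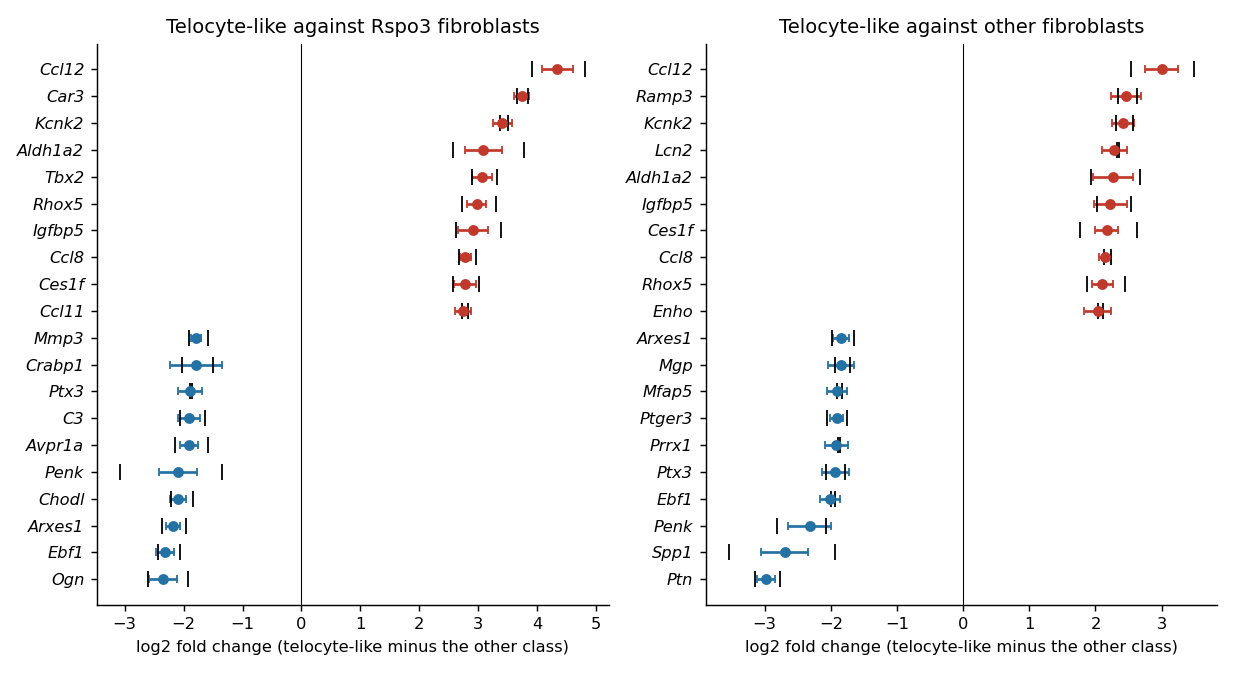
Log2 fold changes (horizontal axes, members minus the other class) of the 10 highest and 10 lowest abundant genes called in each comparison, as points with standard errors from edgeR. Ticks mark the log2 ratio of each library. The genes were chosen so that class values do not overlap, which puts both libraries on the same side of 0.

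Among ligands of the BMP family that the gate did not use, Bmp4 was the gene called higher. It was at 374 and 471 CPM in members, 113 and 134 CPM in Rspo3 fibroblasts and 122 and 196 CPM in other fibroblasts, all member values above the rest, with log2 fold changes of 1.73 ± 0.10 (edgeR adjusted p = 3.2e-05) and 1.40 ± 0.10 (edgeR adjusted p = 2.0e-04). Of the 6 genes of the BMP ligand list that were tested, Bmp4 was the 1 higher in each comparison, and 3 were lower in each. Gdf10, a TGF-beta family ligand with the largest fall of these, was at 4.02 and 4.98 CPM against 10.2 and 29.1 CPM in Rspo3 and 15.0 and 27.9 CPM in other fibroblasts, with log2 fold changes of -2.15 ± 0.25 and -2.35 ± 0.26. Bmp6 was the other ligand gene lower against Rspo3 fibroblasts (-1.67 ± 0.35) and Bmp3 the other against other fibroblasts (-0.78 ± 0.11). Bmp1, which the list also holds, encodes a protease that processes collagen and is no ligand. It was lower against both classes (-0.56 ± 0.07 and -0.44 ± 0.07). The gate genes themselves were at 306 and 245 CPM (Bmp2), 45.2 and 46.1 CPM (Bmp5) and 47.9 and 63.3 CPM (Bmp7) in members, which the selection fixes.

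BMP antagonist genes mostly fell against Rspo3 fibroblasts. Of 12 tested, 3 were higher and 7 lower, with a median log2 fold change of -1.11 against -0.02 over all genes. Against other fibroblasts 2 were higher and 5 lower, with a median of -0.61. Grem1, gremlin 1, was at 631 and 488 CPM in members against 1136 and 887 CPM in Rspo3 fibroblasts (-0.89 ± 0.08, edgeR adjusted p = 1.7e-04), but other fibroblasts held 622 and 570.0 CPM and that difference did not pass the test (-0.14 ± 0.08, edgeR adjusted p = 0.26). Mgp was lower against both classes, and Bmper, which binds BMPs outside the cell, was at 7.06 and 4.5 CPM against 25.3 and 26.4 CPM in Rspo3 and 17.0 and 25.4 CPM in other fibroblasts (-2.24 ± 0.24 and -1.95 ± 0.25). Noggin (Nog) ran the other way at low levels, 4.63 and 5.35 CPM against 1.22 and 2.79 CPM in Rspo3 and 1.52 and 2.82 CPM in other fibroblasts (1.31 ± 0.26 and 1.19 ± 0.28).

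More BMP response genes were lower than higher in members, in which ligand genes were high by selection. Of 12 tested, 1 was higher and 7 lower against Rspo3 fibroblasts (median -0.70), and none was higher and 5 lower against other fibroblasts (median -0.45, against -0.01 over all genes). The count of 0 higher is from edgeR and was 0 by DESeq2 and at an unadjusted p under 0.05 too. Id1, an inhibitor of differentiation induced by SMAD proteins, was at 66.9 and 85 CPM in members, 121 and 167 CPM in Rspo3 fibroblasts and 87.8 and 149 CPM in other fibroblasts, with log2 fold changes of -0.95 ± 0.13 (edgeR adjusted p = 0.0012) and -0.65 ± 0.13 (edgeR adjusted p = 0.012). Id2 was at 23.8 and 54.4 CPM against 63.2 and 167 CPM in Rspo3 and 45.0 and 116 CPM in other fibroblasts (-1.56 ± 0.17 and -1.05 ± 0.17), and Id4 at 12.4 and 16.5 CPM against 37.0 and 59.5 CPM in Rspo3 and 22.4 and 36.0 CPM in other fibroblasts (-1.77 ± 0.17 and -1.04 ± 0.18). Within each library every one of these 3 genes was lowest in members, but for Id2 the second member value lay above the first value of other fibroblasts. The inhibitory SMAD genes Smad6 and Smad7 did not pass the test, at -0.00 ± 0.18 and -0.27 ± 0.10 against Rspo3 fibroblasts. Of 8 BMP receptor genes, 2 were higher and 2 lower against Rspo3 fibroblasts: the type I receptor gene Acvrl1 (0.54 ± 0.06) and the co-receptor gene Eng (0.50 ± 0.09) rose, and Bmpr1b (-1.66 ± 0.21) and Bmpr2 (-0.32 ± 0.07) fell. Bmpr1a, the main type I receptor, was at 65.8 and 54.7 CPM in members and 57.7 and 58.2 CPM in Rspo3 fibroblasts (0.01 ± 0.08).

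Id2 and Id4, which were lower in both comparisons, carry the 6-base GC-rich element bound by BMP-activated SMADs in the 250 bases before their start, and their sequences are shown for that reason. They are from RefSeq on GRCm38.p6, 5′ to 3′ on the strand of the gene, with the element GGCGCC in capitals, which reads the same on both strands. Id2 lies at chr12:25096093-25096342 on the minus strand and Id4 at chr13:48260866-48261115 on the plus strand.
Id2: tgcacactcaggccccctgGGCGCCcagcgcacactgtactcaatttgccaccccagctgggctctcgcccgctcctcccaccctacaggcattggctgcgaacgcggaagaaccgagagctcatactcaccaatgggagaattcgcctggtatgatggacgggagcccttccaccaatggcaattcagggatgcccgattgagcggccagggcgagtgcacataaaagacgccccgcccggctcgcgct
Id4: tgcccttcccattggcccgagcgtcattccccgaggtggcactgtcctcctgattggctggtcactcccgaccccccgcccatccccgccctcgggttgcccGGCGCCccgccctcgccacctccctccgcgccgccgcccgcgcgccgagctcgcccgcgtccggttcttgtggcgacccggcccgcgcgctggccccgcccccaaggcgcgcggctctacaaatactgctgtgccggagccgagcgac
The match is a description of letters, not of binding. The element lies 231 bases before the start of Id2 and 148 bases before that of Id4. Among windows from 250 bases before to 50 after the start, 3 of the 8 response genes with a RefSeq window held it, and 1 of 4 ligand genes, against 11.9% of all 32851 windows. Id3, which fell against Rspo3 fibroblasts (-0.52 ± 0.11), has no such letters in its window.

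Several Wnt ligand genes were higher in members. Of 18 genes for Wnt ligands, R-spondins and inhibitors, 9 were higher and 1 lower against Rspo3 fibroblasts (median 0.60), and 5 higher and 1 lower against other fibroblasts (median 0.10). Wnt4 was at 151 and 86.5 CPM in members against 39.1 and 14.8 CPM in Rspo3 and 51.5 and 23.5 CPM in other fibroblasts (2.19 ± 0.20 and 1.66 ± 0.20), and Wnt5b at 10.0 and 14.8 CPM against 2.13 and 3.56 CPM in Rspo3 and 2.40 and 6.19 CPM in other fibroblasts (2.09 ± 0.19 and 1.54 ± 0.20). The Wnt antagonist gene Dkk2 was at 71.6 and 65.8 CPM against 20.7 and 10.9 CPM in Rspo3 and 25 and 25.7 CPM in other fibroblasts (2.14 ± 0.18 and 1.40 ± 0.18). Rspo1, which amplifies Wnt signals, was at 11.5 and 21.9 CPM against 5.91 and 6.58 CPM in Rspo3 and 8.13 and 14.1 CPM in other fibroblasts, and only the first difference passed (1.36 ± 0.20 and 0.56 ± 0.20). In every Wnt gene named here except Rspo1 the member values lay above those of both classes, again a description. Wnt target genes were divided. Of 8 tested, 4 were higher and 3 lower in each comparison. Lef1, a nuclear effector of Wnt signalling, was at 15.0 and 8.83 CPM against 6.15 and 1.06 CPM in Rspo3 and 4.64 and 1.29 CPM in other fibroblasts (1.95 ± 0.35 and 2.10 ± 0.39), while Axin2, a negative feedback gene, was at 15.8 and 15.8 CPM against 28.1 and 24.3 CPM in Rspo3 and 24.7 and 17.7 CPM in other fibroblasts (-0.75 ± 0.10 and -0.45 ± 0.11). Sp5 had the largest fold of the list but rests on 2 UMIs in each library of Rspo3 fibroblasts, so no value is given. Both Lef1 calls were lost when cells were thinned before the gate. Lef1 was not even among members, being far higher in those without Adamdec1 than in Adamdec1 members, as given below.

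Hedgehog, EGF family and TGF-beta genes moved unevenly. The hedgehog receptor and target gene Ptch1 was at 108 and 112 CPM in members against 44.7 and 50.5 CPM in Rspo3 and 56.2 and 58.7 CPM in other fibroblasts (1.17 ± 0.07 and 0.90 ± 0.07), and Foxf1, a hedgehog-responsive factor of gut mesenchyme, at 173 and 169 CPM against 98.1 and 91.2 CPM in Rspo3 and 108 and 104 CPM in other fibroblasts (0.82 ± 0.07 and 0.65 ± 0.07). Gli1, another target, did not pass (0.10 ± 0.15 and -0.37 ± 0.16), and of 12 hedgehog genes 3 were higher and 3 lower in each comparison. Of 8 EGF family ligand genes, 4 were higher and none lower against Rspo3 fibroblasts, and 3 higher and none lower against other fibroblasts. DESeq2 called none of them lower in either comparison, and at an unadjusted p under 0.05 the counts of lower genes were 0 and 1. Neuregulin 1 (Nrg1) was at 612 and 574 CPM against 229 and 146 CPM in Rspo3 and 219.7 and 200.2 CPM in other fibroblasts (1.64 ± 0.16 and 1.46 ± 0.16), amphiregulin (Areg) at 71.3 and 46.0 CPM against 25.4 and 11.3 CPM in Rspo3 and 39.1 and 15.6 CPM in other fibroblasts (1.70 ± 0.22 and 1.12 ± 0.23), and epiregulin (Ereg) at 372 and 279 CPM against 179.7 and 112 CPM in Rspo3 and 149.8 and 144 CPM in other fibroblasts (1.14 ± 0.13 and 1.09 ± 0.13). Of 12 TGF-beta and activin genes, 3 were higher and 4 lower in each comparison, with Tgfbi, a matrix protein gene induced by TGF-beta, at 148 and 128 CPM against 44.6 and 25.3 CPM in Rspo3 and 59.5 and 44.9 CPM in other fibroblasts (1.99 ± 0.14 and 1.38 ± 0.14). A TGF-beta receptor inhibitor was present in all of these cultures.

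Matrix genes differed by kind, with more genes higher than lower in the basement membrane and matrix list and more lower than higher in the fibrillar collagen list. Of 18 basement membrane and matrix genes tested, 10 were higher and 3 lower against Rspo3 fibroblasts (median 0.35), and 9 higher and 3 lower against other fibroblasts (median 0.26). Col18a1, a basement membrane collagen, was at 548 and 597 CPM in members against 197 and 121 CPM in Rspo3 and 247 and 241 CPM in other fibroblasts (1.83 ± 0.17 and 1.19 ± 0.17), and Lamc1, a laminin chain, at 124 and 144 CPM against 79.2 and 78.1 CPM in Rspo3 and 77.5 and 89.1 CPM in other fibroblasts (0.73 ± 0.07 and 0.65 ± 0.07). Fibronectin (Fn1) was the exception in size, lower at 366 and 346 CPM against 562 and 563 CPM in Rspo3 and 513 and 509 CPM in other fibroblasts (-0.70 ± 0.06 and -0.56 ± 0.06). The collagen IV genes Col4a1 and Col4a2 did not pass in either comparison. Of 6 genes of the fibrillar collagen list, 1 was higher and 4 lower in each comparison, with medians of -0.76 and -0.67. The list also holds Col12a1, a collagen gene that is fibril-associated and not fibrillar. Col3a1 was at 2086 and 2790.1 CPM against 3804 and 5887 CPM in Rspo3 and 3304 and 4662 CPM in other fibroblasts (-1.01 ± 0.09 and -0.74 ± 0.09), whereas Col5a1 was higher (0.44 ± 0.06 and 0.36 ± 0.06). Among 11 matrix protease and inhibitor genes, 3 were higher and 4 lower against Rspo3 fibroblasts, and 3 higher and 3 lower against other fibroblasts. Mmp9, a gelatinase, was at 19.5 and 14.5 CPM in members against 2.44 and 1.27 CPM in Rspo3 fibroblasts (3.19 ± 0.39), and Adamts5, an aggrecan-degrading protease, was lower against both classes (-1.77 ± 0.21 and -1.42 ± 0.22).

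**Figure D4:**
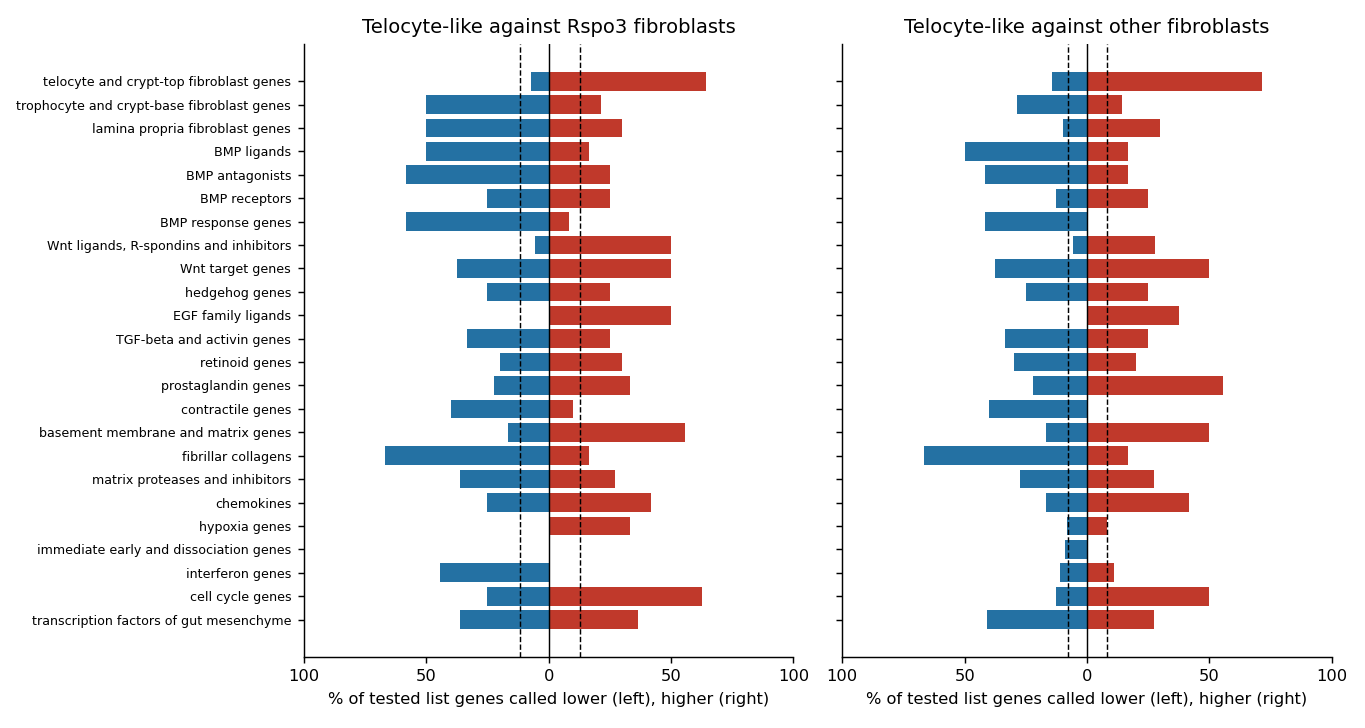
Percent of the tested genes of each list that were called higher (right of 0) or lower (left of 0) in members against Rspo3 fibroblasts and against other fibroblasts. Dashed lines mark the percent of all tested genes called in each direction, 12.9% and 11.9% on the left panel and 8.02% and 7.80% on the right panel.

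Chemokine, prostaglandin and retinoid genes were each divided between rises and falls. Of 12 chemokine genes, 5 were higher and 3 lower against Rspo3 fibroblasts, and 5 higher and 2 lower against other fibroblasts. Besides Ccl8 and Ccl11, Cxcl14 rose, at 60.4 and 45.7 CPM against 15.3 and 17.1 CPM in Rspo3 and 25.2 and 34.5 CPM in other fibroblasts (1.67 ± 0.18 and 0.80 ± 0.18), while the neutrophil chemokine gene Cxcl5 fell, at 237 and 243 CPM against 654 and 766 CPM in Rspo3 and 428 and 517 CPM in other fibroblasts (-1.60 ± 0.08 and -1.01 ± 0.08). Of 9 prostaglandin genes, 3 were higher and 2 lower against Rspo3 fibroblasts and 5 higher and 2 lower against other fibroblasts. The prostaglandin E2 receptor gene Ptger2 rose (1.47 ± 0.17 and 1.22 ± 0.18) and the receptor gene Ptger3 fell, at 52.0 and 12.9 CPM against 153 and 49.7 CPM in Rspo3 and 176 and 53.9 CPM in other fibroblasts (-1.75 ± 0.10 and -1.91 ± 0.10). Of 10 retinoid genes, 3 were higher and 2 lower against Rspo3 fibroblasts and 2 higher and 3 lower against other fibroblasts. The retinoic acid synthesis gene Aldh1a3 rose with Aldh1a2, at 12.1 and 14.8 CPM against 1.58 and 2.74 CPM in Rspo3 and 2.40 and 6.64 CPM in other fibroblasts (2.61 ± 0.27 and 1.60 ± 0.27).

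The endothelin receptor gene Ednrb, which the telocyte list also holds, was at 36.0 and 37.2 CPM in members, 1.60 and 1.58 CPM in Rspo3 fibroblasts and 6.87 and 4.76 CPM in other fibroblasts (4.49 ± 0.29, edgeR adjusted p = 4.2e-05 and 2.59 ± 0.27, edgeR adjusted p = 7.1e-04), with both member values above the rest. Of 14 tested telocyte and crypt-top genes, 9 were higher and 1 lower against Rspo3 fibroblasts (median 1.43), and 10 higher and 2 lower against other fibroblasts (median 1.01). Of 14 trophocyte and crypt-base genes, 3 were higher and 7 lower (median -0.75), and 2 higher and 4 lower (median -0.55). Il33, an alarmin cytokine gene of that list, was lower in members, at 112 and 52.0 CPM against 228 and 201 CPM in Rspo3 and 178 and 149 CPM in other fibroblasts (-1.50 ± 0.20 and -1.10 ± 0.20). Clec3b (tetranectin) and Ly6a, a surface protein gene, went against the direction of that list. Clec3b was at 1.29 and 14.0 CPM in members against 0.120 and 3.11 CPM in Rspo3 and 0.126 and 5.8 CPM in other fibroblasts (2.29 ± 0.32 and 1.47 ± 0.32), higher within each library but far apart between libraries. Ly6a was at 398 and 617 CPM in members against 167 and 439.9 CPM in Rspo3 and 219 and 387 CPM in other fibroblasts (0.81 ± 0.17 and 0.73 ± 0.17). The lists were drawn up with earlier results of these data known, so their counts are descriptive. Of 10 lamina propria fibroblast genes, 3 were higher and 5 lower against Rspo3 fibroblasts (median -0.48). Against other fibroblasts 3 were higher and 1 lower (median -0.20). The FGF receptor gene Fgfr2, 1 of the higher genes, was at 63.4 and 57.4 CPM against 17.6 and 16.5 CPM in Rspo3 and 22.8 and 29.8 CPM in other fibroblasts (1.79 ± 0.12 and 1.17 ± 0.12). Values of the lower genes are not given, so Fgfr2 does not stand for the list.

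Of 22 transcription factor genes of gut mesenchyme, 8 were higher and 8 lower against Rspo3 fibroblasts, and 6 higher and 9 lower against other fibroblasts. Foxf2 was at 19.7 and 21.3 CPM in members against 8.28 and 7.69 CPM in Rspo3 and 9.52 and 10.3 CPM in other fibroblasts (1.32 ± 0.09 and 1.01 ± 0.10), while Prrx1 was at 55.3 and 24.9 CPM against 145 and 79.4 CPM in Rspo3 and 206 and 90.7 CPM in other fibroblasts (-1.55 ± 0.17 and -1.92 ± 0.17). The posterior homeobox gene Hoxd13 fell (-1.41 ± 0.18 and -1.35 ± 0.19). Of 10 contractile genes, 1 was higher and 4 lower against Rspo3 fibroblasts, and none was higher and 4 lower against other fibroblasts (also 0 by DESeq2, 1 at an unadjusted p under 0.05). Acta2, smooth muscle actin, did not pass, at 79.4 and 91.5 CPM against 84.6 and 54.0 CPM in Rspo3 and 85.8 and 75.4 CPM in other fibroblasts (0.30 ± 0.15 and 0.06 ± 0.15), and Tagln, transgelin, was lower (-0.74 ± 0.21 and -1.32 ± 0.21).

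Replication and state genes were measured as well. The gate left out cells with high Mki67 and Top2a, but of 8 other cell cycle genes 5 were higher and 2 lower in members against Rspo3 fibroblasts, with the replication helicase gene Mcm5 at 26.2 and 29.0 CPM against 15.8 and 11 CPM (1.03 ± 0.17). Of 12 hypoxia genes, 4 were higher and none lower against Rspo3 fibroblasts (also 0 by DESeq2, 1 at an unadjusted p under 0.05), and 1 higher and 1 lower against other fibroblasts. None of 11 immediate early and dissociation genes was called against Rspo3 fibroblasts by edgeR or DESeq2, while 2 were lower and 0 higher at an unadjusted p under 0.05. The most abundant of them, the heat shock gene Hspa1a, was at 369 and 909.7 CPM in members and 359.6 and 996 CPM in Rspo3 fibroblasts, further apart between libraries than between classes. Interferon genes also lay apart between the libraries, since the 9 genes summed to 500.1 and 3155 CPM in members and 779.6 and 3215 CPM in Rspo3 fibroblasts, first library then second. Of these, 4 were lower and none higher in members against Rspo3 fibroblasts (also 0 by DESeq2, 1 at an unadjusted p under 0.05), with Ifit1 at 8.88 and 84.1 CPM against 24.4 and 120.2 CPM (-0.83 ± 0.25), values that overlapped between the classes.

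Markers of other cell types were measured in each class. The summed level of 5 immune genes was 4.02 and 4.71 CPM in members, 8.76 and 9.17 CPM in Rspo3 fibroblasts and 22.9 and 79.4 CPM in other fibroblasts, and the 6 endothelial genes summed to 2.43 and 7.82 CPM in members. The 4 enteric glia genes summed to 3.04 and 3.21 CPM and the 5 enteric neuron genes to 25 and 31.1 CPM in members, against 6.53 and 6.69 and 44.2 and 60.7 CPM in other fibroblasts. Rspo3 fibroblasts held 3.09 and 2.52 CPM of the glia genes and 14.5 and 16.5 CPM of the neuron genes. Members thus held more neuron transcripts than Rspo3 fibroblasts and fewer than other fibroblasts. The 1 neuron gene called higher against Rspo3 fibroblasts was the tubulin gene Tubb3 (0.91 ± 0.14). The part of neuron transcripts in either comparison was not tested. Lyz2, Cd52 and Cd68 were called lower in members against other fibroblasts, as was the endothelial gene Emcn. So were 2 of the 5 enteric neuron genes, among them Ret (-1.27 ± 0.35), and 1 of the 4 enteric glia genes. The Ret difference turned to 0.75 with at most 5% mitochondrial UMIs and was not called by DESeq2. Other fibroblasts thus held more immune, endothelial, glia and neuron transcripts than members, and their part in the second comparison was not tested. The 6 epithelial genes summed to 27.8 and 29.9 CPM in members and 24.2 and 9.56 CPM in Rspo3 fibroblasts, with Krt18 called higher in members at 8.35 and 20.9 CPM against 4.74 and 1.32 CPM (2.48 ± 0.60). The part of epithelial transcripts in these results was not tested. The 4 pericyte genes summed to 186 and 121 CPM in members, 235 and 197 CPM in Rspo3 fibroblasts and 213 and 184 CPM in other fibroblasts. Rgs5 was higher (2.19 ± 0.30) and Kcnj8 (-0.50 ± 0.11) and Abcc9 (-0.97 ± 0.19) lower against Rspo3 fibroblasts, and Abcc9 was lower against other fibroblasts (-0.83 ± 0.19). The 3 Cajal cell genes summed to 75.3 and 56.7 CPM in members, 109 and 59.9 CPM in Rspo3 fibroblasts and 88.0 and 64.8 CPM in other fibroblasts, with Etv1 lower against Rspo3 fibroblasts (-0.35 ± 0.09). The most abundant member genes were common to fibroblasts, led by Malat1 at 13239.6 and 15383 CPM, Tpt1, Eef1a1, Ftl1, Fth1, Ifitm3, Fau, Lgals1, S100a6 and Sparc, the last at 3707 and 3705 CPM in members and 4503 and 4143 CPM in other fibroblasts.

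Members differed among themselves. The 360 and 403 members with Bmp2 but no Bmp5 UMI were compared with the 104 and 259 members with Bmp5 but no Bmp2 UMI. Of 12009 genes tested, 131 were higher and 141 lower in Bmp2 members, a background of 1.09% and 1.17%. Lcn2 was at 366 and 185 CPM in Bmp2 members and 21.4 and 5.51 CPM in Bmp5 members (4.56 ± 0.52, edgeR adjusted p = 0.0013). Ptgs2, the inducible prostaglandin synthase, was at 181 and 211 CPM against 42.8 and 66.6 CPM (1.73 ± 0.16), the matrix gene tenascin C (Tnc) at 343 and 273 CPM against 129.6 and 89.2 CPM (1.49 ± 0.12) and the cytokine gene Il11 at 555 and 276 CPM against 230.0 and 57.0 CPM (1.71 ± 0.19). In each of these 4 genes both Bmp2 member values lay above both Bmp5 member values, which the rule that chose them required. The basement membrane and matrix list, which does not hold Tnc, ran the other way, with 6 of 18 genes lower and none higher in Bmp2 members (also 0 by DESeq2, 0 at an unadjusted p under 0.05) and a median of -0.41. Of 12 chemokine genes 3 were higher and 3 lower. Of 8 prostaglandin genes 3 were higher by edgeR but 1 by DESeq2, and none was lower (also 0 by DESeq2, 2 at an unadjusted p under 0.05). Mgp (1.41 ± 0.15), Cd34 (1.58 ± 0.23) and Cd81 (0.56 ± 0.08) were also higher in Bmp2 members, whereas Foxl1 did not pass, at 4.14 and 4.88 CPM against 0.648 and 1.93 CPM (1.60 ± 0.45, edgeR adjusted p = 0.11). The 4 pericyte genes summed to 200.4 and 138 CPM in Bmp2 members and 149 and 106 CPM in Bmp5 members, with Kcnj8, a potassium channel gene, called higher (0.55 ± 0.09). No other tested marker of another cell type was called here by edgeR or DESeq2. The part of pericyte transcripts was not tested.

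Most lamina propria fibroblast genes were higher in Bmp5 members. The gate gene Adamdec1 differed between these subsets too, at 198 and 338 CPM in Bmp2 members and 511 and 615 CPM in Bmp5 members. Without Bmp2 the gate required Adamdec1 or Bmp7 beside Bmp5, and all but 1 Bmp5 member in each library held Adamdec1. Among Bmp2 members 39 and 28 lacked it. The part of Adamdec1 in this comparison was not tested. Of 10 lamina propria fibroblast genes tested, 8 were lower and none higher in Bmp2 members (also 0 by DESeq2, 0 at an unadjusted p under 0.05), with a median of -0.65 against -0.01 over all genes. Fgf10, an epithelial growth factor, was at 43.6 and 58.1 CPM in Bmp2 members and 66.1 and 133 CPM in Bmp5 members (-1.04 ± 0.13, edgeR adjusted p = 0.0022), Wnt2 at 53.0 and 56.3 CPM against 90.1 and 98.9 CPM (-0.83 ± 0.09) and the Wnt inhibitor gene Sfrp1 at 671 and 771 CPM against 1208 and 1221 CPM (-0.79 ± 0.07). The lipase gene Lpl was at 93.2 and 142 CPM against 223 and 267 CPM (-1.10 ± 0.11), Rspo1 at 8.78 and 15.4 CPM against 18.8 and 41.0 CPM (-1.38 ± 0.17) and Tcf21, a factor of fibroblast precursors, at 237 and 320.3 CPM against 368 and 527 CPM (-0.72 ± 0.07). In each of these 6 genes both Bmp2 member values lay below both Bmp5 member values. For Fgf10, Wnt2 and Lpl the rule that chose them required this. Median depth was 14258.5 and 15557 UMIs in Bmp2 members and 13068.5 and 12382 UMIs in Bmp5 members. With cells drawn to the same depth, 23 genes were higher and 24 lower, and 24 of the 63 named and list genes kept their call. These included Lcn2, Ptgs2, Tnc, Il11, Fgf10, Wnt2, Sfrp1, Lpl and Tcf21, while Mgp, Cd34, Cd81 and Rspo1 lost theirs. DESeq2 called 69 higher and 76 lower. Without the block edgeR called no gene, with 518 higher and 425 lower at an unadjusted p under 0.05, and without TMM scaling 59.5% of calls were higher, against 48.2%.

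Members were also divided by Adamdec1. Members with Adamdec1 and exactly 1 of the Bmp genes (356 and 576 cells) were compared with members without Adamdec1, which held 2 or 3 Bmp genes (92 and 68 cells). Of 11976 genes tested, 726 were higher and 778 lower in Adamdec1 members, a background of 6.06% and 6.50%. Foxl1 was at 2.73 and 2.63 CPM in Adamdec1 members and 6.60 and 16.3 CPM in members without it (-2.01 ± 0.38, edgeR adjusted p = 0.0079), and Wnt5a at 68.9 and 48.0 CPM against 88.9 and 105 CPM (-0.67 ± 0.17). Of 14 telocyte and crypt-top genes tested, 7 were lower and none higher in Adamdec1 members (also 0 by DESeq2, 1 at an unadjusted p under 0.05), with a median of -0.19 against 0.02 over all genes. Lef1 was at 4.56 and 1.32 CPM against 52.8 and 55.9 CPM (-4.25 ± 0.32, edgeR adjusted p = 6.6e-05) and Apcdd1, a Wnt-induced inhibitor of BMP and Wnt receptors, at 8.02 and 6.34 CPM against 56.9 and 35.4 CPM (-2.62 ± 0.19). Follistatin (Fst), an activin and BMP antagonist, was at 35.4 and 11.7 CPM against 179 and 137 CPM (-2.78 ± 0.27), Ramp3 at 14.4 and 22.7 CPM against 191 and 220.0 CPM (-3.34 ± 0.28) and Nrgn, a calmodulin-binding protein gene, at 1.64 and 2.27 CPM against 151 and 41.0 CPM (-5.41 ± 0.60, edgeR adjusted p = 5.1e-04). Of 8 Wnt target genes tested, 3 were lower and none higher in Adamdec1 members (also 0 by DESeq2, 0 at an unadjusted p under 0.05). Axin2 was among the 5 not called, at 17.9 and 16.8 CPM against 16.3 and 20.5 CPM. Bmp2 was divided by this split too. It was absent from 1 member without Adamdec1 in each library, and present in 223 of 356 and 224 of 576 Adamdec1 members. Since Adamdec1 members held 1 Bmp gene and the others 2 or 3, Adamdec1, Bmp2 and the number of Bmp genes cannot be told apart here. The cells with all 4 gate genes, Adamdec1 included, held Foxl1 at 10.1 and 16.1 CPM. Cd34, a trophocyte marker, was also lower in Adamdec1 members, at 15.9 and 15.4 CPM against 42.2 and 58.7 CPM (-1.61 ± 0.19). It was the 1 gene lower of 12 trophocyte and crypt-base genes tested, of which 4 were higher (median 0.25).

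The lamina propria, basement membrane and fibrillar collagen lists held genes higher in Adamdec1 members and none lower. The largest rise among abundant genes was in the neuropeptide gene galanin (Gal), at 97.2 and 30.6 CPM in Adamdec1 members and 4.57 and 3.54 CPM in members without Adamdec1 (3.97 ± 0.73). Enteric neuron markers moved with it, since the 5 genes summed to 31.0 and 29.6 CPM in Adamdec1 members and 19.8 and 19.8 CPM in members without it. Of the 4 tested, 2 were called higher by edgeR and 0 by DESeq2. Both of these genes had no UMI in members without Adamdec1. Their part in the Gal rise was not tested. Epithelial markers ran the other way, with the 6 genes at 25.7 and 9.46 CPM in Adamdec1 members and 35.1 and 46.7 CPM in members without it. Of 5 tested, Krt18 was lower by edgeR (-3.39 ± 0.58) and 0 by DESeq2, and the part of epithelial transcripts in this split was not tested. Of 10 lamina propria fibroblast genes, 6 were higher (median 1.33) and none lower (also 0 by DESeq2, 0 at an unadjusted p under 0.05), with Cxcl12 at 152 and 398 CPM against 52.8 and 120.3 CPM (1.69 ± 0.11) and Ccl11 at 3149.6 and 3015 CPM against 1639.9 and 1149 CPM (1.23 ± 0.09). Of 18 basement membrane and matrix genes, 10 were higher (median 0.68) and none lower (also 0 by DESeq2, 1 at an unadjusted p under 0.05), among them periostin (Postn), at 154 and 429 CPM against 64.5 and 52.4 CPM (2.14 ± 0.32). Of the 6 genes of the fibrillar collagen list, which also holds the fibril-associated Col12a1, 4 were higher and none lower (also 0 by DESeq2, 0 at an unadjusted p under 0.05). Sfrp1 was at 911 and 1146 CPM against 328 and 203 CPM (2.02 ± 0.18) and Wnt2 at 75.5 and 79.8 CPM against 28.5 and 28.3 CPM (1.51 ± 0.13). Of 11 BMP response genes 3 were higher and none lower (also 0 by DESeq2, 1 at an unadjusted p under 0.05), with Id2 at 36.5 and 77.1 CPM against 19.3 and 30.4 CPM (1.21 ± 0.19), while Id1 did not pass (-0.07 ± 0.17). Of 11 immediate early and dissociation genes 6 were higher and 1 lower (6 and 1 by DESeq2). Of 11 hypoxia genes 5 were higher and none lower (also 0 by DESeq2, 0 at an unadjusted p under 0.05). The part of these state genes in the split was not tested. Cell cycle genes ran the other way, with 7 of 8 lower by edgeR but 2 by DESeq2 and none higher in Adamdec1 members (also 0 by DESeq2, 0 at an unadjusted p under 0.05). So did the chemokine gene Ccl2, at 435 and 386 CPM against 1222 and 1052 CPM (-1.41 ± 0.07).

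Depth differed between these subsets, with medians of 13077 and 12588 UMIs in Adamdec1 members and 21105 and 19970.5 UMIs in members without it. With cells drawn to the same depth, 379 genes were higher and 307 lower, and Foxl1, Lef1, Apcdd1, Fst, Ramp3, Cxcl12, Ccl11, Postn and Sfrp1 kept their calls while Wnt5a, Cd34, Rspo1, Pcna, Mcm2, Mcm5, Ccnb1 and Cdkn2a lost them. Without the block 71 genes were higher and 71 lower, and Foxl1, Wnt5a, Cxcl12, Postn and Id2 were no longer among them. Without TMM scaling 37.1% of the calls were higher in Adamdec1 members, against 48.3%.

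**Figure D5:**
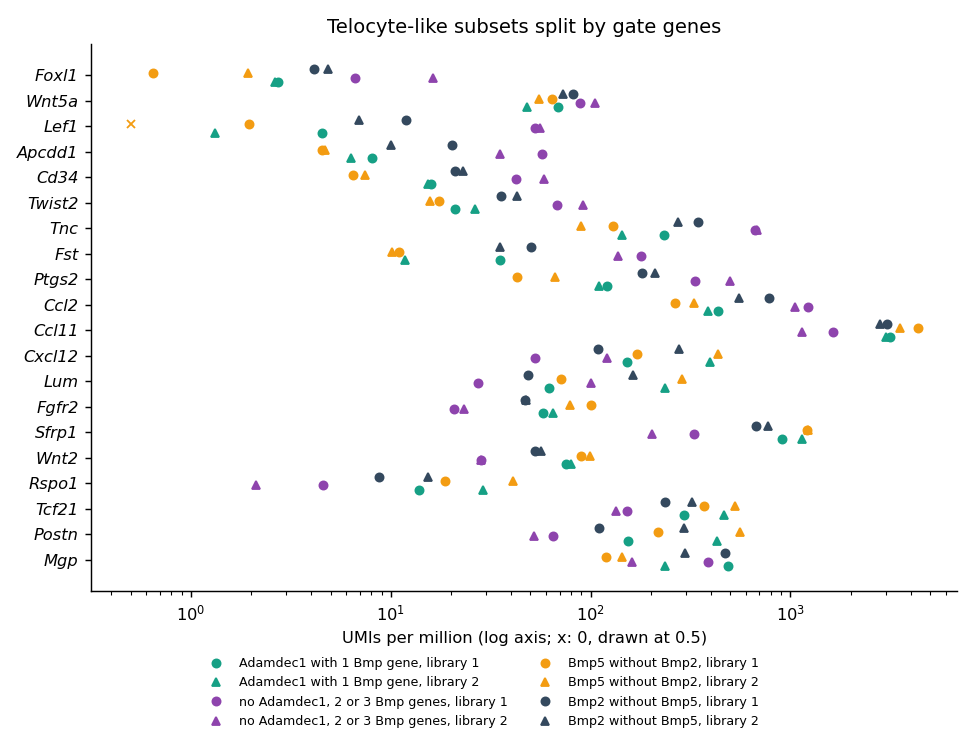
CPM (horizontal log axis) of 20 genes in 4 subsets of telocyte-like members split by gate genes, with circles for the first and triangles for the second library; subsets of different splits share cells. Members without Adamdec1 hold the highest Foxl1, Lef1, Apcdd1, Tnc and Fst and the lowest Lum, Fgfr2, Sfrp1, Wnt2 and Rspo1 of the 4 subsets in both libraries.

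Members were also divided by Rspo3, which the gate did not use. With cells thinned to 4000 UMIs, an Rspo3 UMI was seen in 8.48% and 10.6% of members, against 2.94% and 0.833% of neural cells. Without thinning the shares were 24.3% and 23.5% of members and 5.31% and 6.82% of neural cells, which were shallower. In the 189 and 268 members with an Rspo3 UMI, Cd81 was at 414 and 301 CPM, Grem1 at 1095 and 977 CPM and Foxl1 at 1.96 and 4.24 CPM. In the 590 and 874 members without one, Cd81 was at 137 and 92.8 CPM, Grem1 at 422 and 299.7 CPM and Foxl1 at 6.71 and 8.67 CPM. Cd81 and Grem1 were thus higher and Foxl1 lower in members with Rspo3 in both libraries, a description of 2 libraries with no test. Members with an Rspo3 UMI were also deeper, with medians of 20000 and 17628.5 UMIs against 13874 and 14062 UMIs without one, and the part of depth was not tested.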

How the data were processed

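Single-cell RNA-seq was deposited for 8 mouse libraries, and the comparisons use the 2 stromal ones. The authors deposited filtered 10x matrices of raw UMI counts, made with Cell Ranger (6.0.1 in the stromal file headers, 7.1.0 in the epithelial ones and 6 in the processing notes) against mm10; whether intronic reads were counted is not given in the sources used here. Cells were gated as described above, without clustering or a doublet caller, and doublets were addressed only by leaving out the 5% of cells with the most UMIs as an alternative. Since classes of 1 library come from the same culture, UMI counts were summed per library and class and tested with edgeR 4.0.16 (quasi-likelihood, TMM, filterByExpr, library as block, limma 3.58.1, R 4.3.3) and Benjamini-Hochberg adjustment over all genes tested, with calls under 0.05. Tables were made with Python 3.11.15. The members and gene lists were chosen with earlier results of these data known. Named genes are the 10 highest and 10 lowest called genes averaging 5 or more on the log2 CPM scale, whose class values do not overlap, leaving out mitochondrial, ribosomal, immunoglobulin and unnamed genes and those used by the gate, together with genes of the fixed lists and the label genes; which list genes serve as examples was in part decided after their values were seen. Of 32285 gene IDs, 32235 (99.8%) were found in GENCODE M21, which gave the coordinates on GRCm38. Median depth was 15448.5 and 13246 UMIs per passing stromal cell, and intervals and limits cover counting error only. On simulated counts with 100 genes changed 2-fold and 100 changed 4-fold, edgeR called 74 and 99 of them against Rspo3 fibroblasts, 81 and 99 against other fibroblasts, 53 and 98 between Bmp2 and Bmp5 members and 57 and 95 between Adamdec1 and other members, with 2 to 7 false calls. The simulated counts had the same fixed spread for all genes and no difference between libraries beyond their totals. These counts thus do not measure recovery or false calls in the real data. Alternatives were DESeq2 1.42.0, no filter, no block, no TMM, at most 5% mitochondrial UMIs, thinning to 4000 UMIs before the gate, matched depth, stricter gates and leaving out 1 library. The same comparisons in the assembloid epithelial libraries were planned but not run, since no library there held 50 members. The values of some list genes are not reported here.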

Additional observations from a re-analysis of the deposited data

Results flagged for a closer look

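The gate was also applied to the 6 epithelial libraries, which no comparison uses. It found 21 telocyte-like cells among 29410 passing cells of the first assembloid epithelial library, a share of 0.0714%, and 21 among 7722 of the second, a share of 0.272%. The organoid and tissue epithelial libraries held 0 such cells, which allows shares of up to 0.0373% to 0.0696% of passing cells (3 counts of the total). By the same limits on Col1a2 and Epcam they held 0 fibroblasts of any kind. Their counts thus do not describe how common telocyte-like cells are among fibroblasts of the tissue. Of the non-cycling fibroblasts in the assembloid epithelial libraries, 9.72% of 216 and 17.8% of 118 were telocyte-like. Their Cd81 level was 85.5 and 65.1 CPM, against 297 and 307 CPM in Rspo3 fibroblasts of the same libraries, and Grem1 was at 886 and 716 CPM against 1225 and 1109.8 CPM. Wnt5a was at 62.2 and 16.3 CPM, against 45.0 and 17.1 CPM in Rspo3 fibroblasts and 22.4 and 22.7 CPM in other fibroblasts. Pdgfra was lowest in the telocyte-like cells, at 326 and 297 CPM. Rspo3 fibroblasts held 459 and 354 CPM of Pdgfra and other fibroblasts 477 and 346 CPM. Foxl1 had 0 UMIs in the telocyte-like cells, among 128714 and 245882 UMIs, so its level there was not detectable at this depth. Other fibroblasts there held Grem1 at 857 and 625 CPM, below the telocyte-like cells. F3 was at 85.5 and 110 CPM in the telocyte-like cells. Rspo3 fibroblasts held 75.6 and 46.6 CPM of F3 and other fibroblasts 82.5 and 68.2 CPM. Id1 was at 77.7 and 48.8 CPM in the telocyte-like cells, 54.0 and 90.0 CPM in Rspo3 and 34.9 and 43.2 CPM in other fibroblasts. In the stromal libraries F3 and Id1 were lowest in members. With 21 cells per library these are values without a test.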

How the results depend on the processing

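The block mattered most. With no replicate block the counts of higher and lower genes fell to 496 and 385 against Rspo3 fibroblasts, 181 and 162 against other fibroblasts, 71 and 71 between Adamdec1 and other members, and 0 and 0 between Bmp2 and Bmp5 members. Of the named and list genes called, 64 of 171, 39 of 153, 27 of 115 and 0 of 63 then kept their call. Cells thinned before the gate gave 1177 higher genes against Rspo3 fibroblasts, 683 higher and 739 lower against other fibroblasts, 31 and 30 between Bmp2 and Bmp5 members, and 177 and 112 between Adamdec1 and other members. Matched depth gave 738 higher against other fibroblasts, 23 and 24, and 379 and 307 in the same order. DESeq2 gave 69 and 76 between Bmp2 and Bmp5 members and 317 and 369 between Adamdec1 and other members, no filter gave 422 and 318 between Bmp2 and Bmp5 members, and a gate of 3 genes gave 1806 lower against other fibroblasts. Fewer cells or UMIs entered the thinned and matched settings, and the cause of these changes was not tested. The member share was 16.7% at 5% mitochondrial UMIs, 7.03% thinned, 7.09% with 3 genes and 7.99% without Adamdec1, and 14.7% to 16.1% when either library was left out. Thinning turned Fst (-0.46) against Rspo3 fibroblasts, Nid2 (0.0615) and Tbx3 (0.16) against other fibroblasts and Enho (0.11) between Bmp2 and Bmp5 members. The stricter mitochondrial limit turned Ret (0.75) against other fibroblasts, and matched depth turned Clec3b (0.0671) between Bmp2 and Bmp5 members and Bmp4 (-0.0332) between Adamdec1 and other members. Without a library 1 remained, so fold changes but no counts of calls could be given, and no named or list gene that was called changed sign. For the highest and lowest genes the rule that chose them required this. The fold change then moved by more than the SD between libraries in 26 to 29 of 171 called genes against Rspo3 fibroblasts, 36 to 43 of 152 or 153 against other fibroblasts, 15 to 27 of 62 or 63 between Bmp2 and Bmp5 members and 24 to 25 of 112 or 113 between Adamdec1 and other members. With 2 libraries each ratio lies within the SD of their mean by arithmetic, so these counts do not measure how stable the fold changes were. The other alternatives left each count within 1.5 times of its value above. Low genes such as Foxl1 and Sox6 rest on few UMIs.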
